A study of Mus musculus with 6 samples.

Results

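The long noncoding RNA *Lexis* (listed as 4930412L05Rik) and 8 genes around it on mouse chromosome 4 were examined in inguinal white adipose tissue (iWAT), the subcutaneous depot at the groin. The members were taken by symbol: *Lexis*, AI427809 (named *Mexis* in RefSeq), *Nipsnap3b*, *Slc44a1*, *Fsd1l*, *Tmem38b*, *Zfp462*, *Rad23b* and *Klf4*, and a symbol with more than 1 row is represented by its most counted row. These are 9 of the 37024 rows of the count table, and 8 of them passed edgeR's filter on low counts, which left 9872 rows to test. Mice on a C57BL/6 background were fed a Western diet for 12 weeks, and bulk RNA from 3 iWAT samples of each group was sequenced. *Lexis*-AdWT animals were *Lexis* fl/fl littermates without Cre, and *Lexis*-AdKO animals were *Lexis* fl/fl and carried Adipoq-cre. The sex and age of these 6 mice are not given in the sources used here. Both groups carry the floxed allele. The adiponectin promoter drives Cre in adipocytes, so the other cells of the depot keep the allele in its unrecombined form, and a bulk sample holds both. In the study's scheme of that allele, an inverted cassette with a splice acceptor, an RNA aptamer and polyadenylation signals lies behind exon 1 and is turned round by Cre, while exon 1 stays. The deposited row gives 1 count for the whole gene, so it does not separate exon 1 from the exons behind the cassette.

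A long noncoding RNA can act where it is made, on genes of the same chromosome, or at distant sites that it reaches with a protein partner. For the first kind, the genes next to its own are those a reader examines first. *Lexis* was described as a liver RNA induced by liver X receptors, the nuclear receptors that sense sterols, and *Mexis* as a macrophage RNA induced by the same receptors. The comparison of AdKO with AdWT addresses whether the RNAs of this region differ in level when the *Lexis* allele is recombined in adipocytes.

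In the GENCODE annotation of NCBIM37, the same build as mm9, *Lexis* (ENSMUSG00000087192.1, lincRNA) lies on the minus strand at chr4:53217938-53230729 and has 2 transcripts. Exon 1 ends at the same splice donor in both and makes up 17% of the longer transcript, of 1241 bases, and 76.5% of the shorter one, of 663 bases. Of the other members, *Nipsnap3b* (chr4:53024752-53034932, plus strand) lies on the side of the *Lexis* 3′ end, with a gap of 183 kb. On the other side, AI427809 is annotated as 2 neighbouring gene models on the minus strand (chr4:53274765-53275419, called protein coding, and chr4:53275604-53283104, a processed transcript), the nearer with a gap of 44.04 kb. *Slc44a1* (chr4:53453285-53635350, plus strand) follows after 222.6 kb, *Fsd1l* (chr4:53644343-53719881, plus strand) after 413.6 kb and *Tmem38b* (chr4:53838917-53874891, plus strand) after 608.2 kb. The 3 most distant members are *Zfp462* (chr4:54957920-55096435, plus strand) after 1727 kb, *Rad23b* (chr4:55362915-55405109, plus strand) after 2132 kb and *Klf4* (chr4:55540013-55545347, minus strand) after 2309 kb. No annotated gene overlaps *Lexis* or AI427809, while *Slc44a1* and *Fsd1l* each overlap a gene on the opposite strand (1700060J05Rik and Gm10979), and *Fsd1l* and *Tmem38b* each overlap one on their own strand (Gm12470 and n-R5s185). The kit kept strand, but whether counting used it is not given in the sources used here, so reads of such pairs may not be told apart.

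Exon 1 of the longer *Lexis* transcript is shown because exon 1 stays in the study's scheme of the recombined allele. It stands at chr4:53230203-53230433 (NCBIM37, minus strand) with the first 20 bases of intron 1. Exon 1 of the shorter transcript is annotated with 507 bases, and which of these the scheme means was not checked. The 211 exon bases come first, and the capitals mark the splice donor, the first 2 bases of the intron.
Lexis exon 1: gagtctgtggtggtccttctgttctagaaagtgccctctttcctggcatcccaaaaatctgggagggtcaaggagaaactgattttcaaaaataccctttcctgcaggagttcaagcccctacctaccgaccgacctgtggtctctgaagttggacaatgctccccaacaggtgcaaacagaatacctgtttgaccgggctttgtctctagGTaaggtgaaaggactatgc

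RefSeq promoter windows, 250 bases before to 50 after an annotated start, were available for 7 of the 9 members, as 11 entries in a table built on GRCm38.p6. Each of the 11 matched chromosome 4 of NCBIM37 exactly and once, and positions are given on NCBIM37 from that match. The windows of *Lexis*, AI427809, *Slc44a1* and *Klf4* are shown, because *Lexis*, *Slc44a1* and *Klf4* are the members whose groups did not overlap and AI427809 is the member nearest to *Lexis*. Capitals mark, on either strand, matches to the TATA box (TATAAA), the box known as CCAAT, the GC box (GGGCGG), a site of nuclear receptors (AGGTCA) and the TCF site (ATCAAAG), where neighbouring GGGCGG matches can share a base.
Lexis, chr4:53231504-53231803, minus strand: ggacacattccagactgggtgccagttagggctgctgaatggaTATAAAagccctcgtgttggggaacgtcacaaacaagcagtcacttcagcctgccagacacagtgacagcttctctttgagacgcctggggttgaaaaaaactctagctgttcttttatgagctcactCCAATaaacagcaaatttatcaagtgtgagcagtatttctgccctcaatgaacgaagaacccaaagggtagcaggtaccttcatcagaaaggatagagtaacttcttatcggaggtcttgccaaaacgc
AI427809, chr4:53283055-53283354, minus strand: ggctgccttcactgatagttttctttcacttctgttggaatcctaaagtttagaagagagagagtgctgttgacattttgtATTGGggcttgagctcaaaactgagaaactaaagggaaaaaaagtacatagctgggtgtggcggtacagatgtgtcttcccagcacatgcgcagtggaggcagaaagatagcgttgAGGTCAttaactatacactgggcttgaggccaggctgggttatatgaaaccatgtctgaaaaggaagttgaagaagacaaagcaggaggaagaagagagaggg
Slc44a1, chr4:53453035-53453334, plus strand: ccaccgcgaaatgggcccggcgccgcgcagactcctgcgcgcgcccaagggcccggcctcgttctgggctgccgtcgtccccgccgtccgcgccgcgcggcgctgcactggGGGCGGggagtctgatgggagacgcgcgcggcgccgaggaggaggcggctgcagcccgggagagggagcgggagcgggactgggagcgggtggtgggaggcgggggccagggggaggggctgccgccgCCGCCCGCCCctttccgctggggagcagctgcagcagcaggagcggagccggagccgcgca
Klf4, chr4:55545298-55545597, minus strand: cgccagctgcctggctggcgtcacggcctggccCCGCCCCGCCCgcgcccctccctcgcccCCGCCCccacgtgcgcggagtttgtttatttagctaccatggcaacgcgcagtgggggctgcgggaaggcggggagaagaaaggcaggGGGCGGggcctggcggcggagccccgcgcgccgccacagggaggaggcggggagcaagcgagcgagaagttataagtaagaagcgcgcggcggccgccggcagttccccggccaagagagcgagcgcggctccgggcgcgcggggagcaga

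The *Lexis* window starts from a RefSeq start 824 bases upstream of the GENCODE start, and a second RefSeq start, whose window is not shown, lies 504 bases upstream of it. The *Lexis* window shown holds 1 TATAAA and 1 CCAAT and has 46.3% G and C, against a median of 52.7% over the 32851 windows of the table. The second *Lexis* window has 43.3% G and C and holds none of the 5 motifs. TATAAA is found in 13.6% of all windows and in no other of the 11 entries of the members. The AI427809 window shown has 45% G and C and holds 1 CCAAT and 1 AGGTCA. A second AI427809 window, at chr4:53278315-53278614, has 53.3% and holds 1 CCAAT but no AGGTCA. Those motifs are found in 37.4% and 16.3% of all windows. The windows of the 2 coding genes were richer in G and C. That of *Slc44a1* has 79.7% G and C with 3 GGGCGG, and that of *Klf4* has 74.3% with 4, where 35.7% of all windows hold at least 1. ATCAAAG, found in 3.73% of all windows, is in none of the 11 entries. These are matches of letters only.

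Libraries held between 14470542 and 17882713 counts. A floor of 3 counts, set for rows near 0, comes to between 0.179 and 0.206 CPM (the count divided by the library total and multiplied by 1000000). CPM here are scaled by edgeR's TMM factors. edgeR's quasi-likelihood test found 0 of the 9872 rows (0%) with a Benjamini-Hochberg adjusted *p* under 0.05, 566 (5.73%) at an unadjusted *p* under 0.05 and 1173 (11.9%) in which the groups did not overlap in CPM. DESeq2, the tool the authors used, called 27 rows at an adjusted *p* under 0.05, none of them a member, and its filter left *Lexis* and AI427809 without an adjusted *p*. Of the 5 adipocyte markers with a row, the best counted was *Fabp4*, a fatty acid carrier, with 419735 to 563899 counts a library. The summed level of the 5 was 46100 to 54500 CPM in the libraries labelled AdWT and 41200 to 41900 CPM in those labelled AdKO. Nearly all of that sum came from *Fabp4*, *Lep* and *Adipoq*. Of the 5 markers, 1 had a fold change above 0 (*Plin1*, 0.10 on the log2 scale) and 4 below it, none with an adjusted *p* under 0.05 in edgeR. The groups of 2 did not overlap, both lower in AdKO, where 5.72% of all rows did so. Skeletal muscle markers (6 genes with a row) summed to 10.7 to 144 CPM in AdWT, with AdWT 2 highest, and to 2.5 to 3.29 CPM in AdKO, with *Ckm* at 0 in all 3 AdKO libraries and *Myh4* and *Tnnt3* at 0 in all 6. Epithelial markers (5 genes) stood apart in AdWT 3 and AdKO 3, with 20.2 and 47.9 CPM against 0.892 to 1.44 CPM in the other 4 libraries. In bulk tissue, fewer cells of a type and less RNA per cell cannot be told apart.

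*Lexis* had few counts in every library, and its row was not lower in the libraries labelled AdKO. The raw counts were 8, 9 and 8 in AdWT 1, 2 and 3 and 21, 11 and 13 in AdKO 1, 2 and 3, or 0.523, 0.537 and 0.534 CPM against 1.44, 0.724 and 0.78 CPM. Every library labelled AdKO lay above every library labelled AdWT, and AdKO 1 stood highest. Since the targeted gene was not lower under the AdKO label, and its exon 1 is kept, the row does not check the labels, and AdWT and AdKO below mean the libraries with those labels. Summed over the group, 45 reads in AdKO stood against 25 in AdWT. The 95% exact Poisson intervals of single counts, which cover counting error only, ran from 3.45 to 17.1 over the AdWT libraries and from 5.49 to 32.1 over the AdKO libraries, and every AdWT interval overlapped every AdKO interval. In AdWT the 3 values spread by 1.46% of their mean, where counting alone would give 34.6%. In AdKO the spread was 40.7%, against 25.8% from counting alone. The log2 fold change was 0.87 (SE 0.381, 95% interval -0.02 to 1.76), or 1.82-fold with an interval of 0.983-fold to 3.38-fold, and it did not pass the test (adjusted *p* = 0.851). The interval includes no change, and its lower bound depends on the fit. It was 0.781-fold in DESeq2, and 0.757-fold without AdKO 1 and 1.02-fold without AdKO 2 in edgeR. The exact permutation test, two-sided and on log2(CPM + 0.5), gave *p* = 0.1, the smallest that 3 against 3 allows. Without AdKO 1 the log2 fold change was 0.50, and without AdKO 2 it was 1.04, the lowest and highest over the 14 alternatives in which it had a value.

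AI427809, the *Mexis* locus, was counted even more rarely. Its larger row had 4, 3 and 1 counts in AdWT and 6, 4 and 4 in AdKO, and its other row had 1, 1 and 0 against 4, 2 and 2. In the larger row AdKO 1 was highest and AdWT 3 lowest, and the groups met at 4 counts. It failed the filter on low counts, and the fit over all rows with at least 1 count in any library gave a log2 fold change of 0.80 (SE 0.705, 95% interval -0.73 to 2.33, adjusted *p* = 0.84). It was 0.45 without AdWT 3 and 1.22 without AdWT 1. With the rows of each symbol summed, the groups no longer overlapped, and the log2 fold change was 1.14 (adjusted *p* = 0.841). With counts this low, the values do not tell whether AI427809 differed, and the interval of the larger row spans from 0.605-fold to 5.03-fold. How reads shared by rows of a symbol were assigned is not given in the sources used here.

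**Figure D1:**
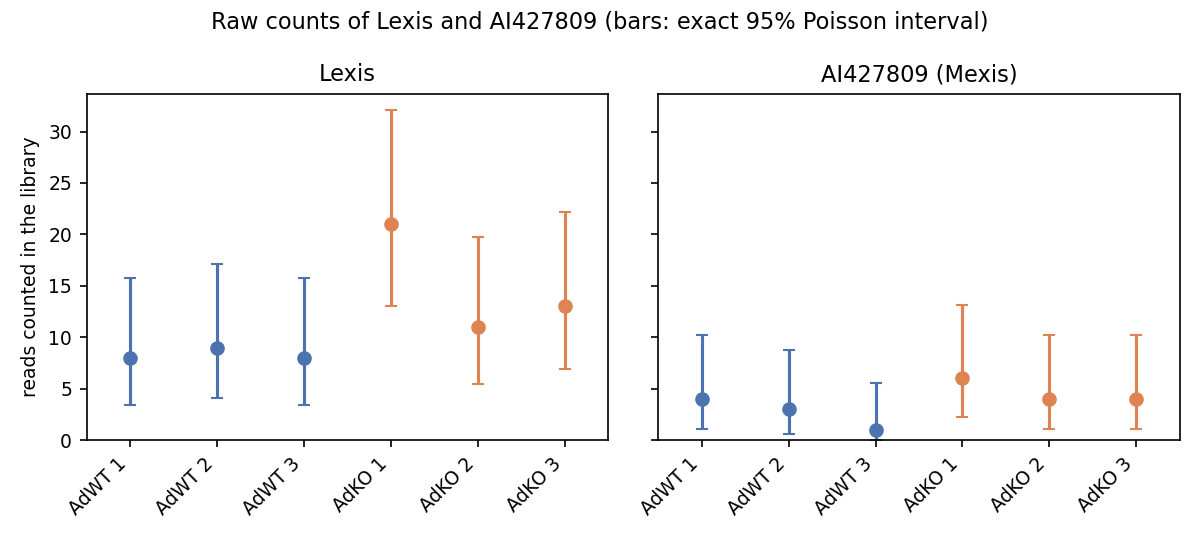
Raw read counts of *Lexis* and AI427809 (vertical axis) in each of the 6 libraries (horizontal axis, AdWT in blue, AdKO in orange), with bars for the 95% exact Poisson interval of each count. The 3 AdKO counts of *Lexis* (11 to 21) lie above the 3 AdWT counts (8 to 9), but the bars of all 6 libraries overlap, and no AI427809 count is above 6.

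Of the members nearest to *Lexis* after AI427809, *Slc44a1* was higher in every AdKO library than in any AdWT library, and *Nipsnap3b* and *Fsd1l* overlapped between groups. *Slc44a1* encodes a choline transporter, which supplies choline for the synthesis of phosphatidylcholine. It stood at 18.6, 18.6 and 20.9 CPM in AdWT and at 23.3, 21.4 and 22.3 CPM in AdKO, and the lowest AdKO value was close above AdWT 3. The difference was small, with a log2 fold change of 0.21 (SE 0.102, 95% interval -0.03 to 0.44), or 1.15-fold, and did not pass the test (adjusted *p* = 0.851, exact permutation *p* = 0.1). Its direction was kept in all 15 alternatives, between 0.17 and 0.27 on the log2 scale. Both other rows of the symbol had at most 2 counts in any library, all of them in AdWT. *Nipsnap3b* belongs to a family of proteins associated with mitochondria. It had 54, 51 and 61.5 CPM in AdWT and 53.2, 52.9 and 50.7 CPM in AdKO, so AdWT 3 stood above the other 5 libraries, which lay between 50.7 and 54 CPM. The log2 fold change was -0.09 (SE 0.0892, 95% interval -0.29 to 0.12, adjusted *p* = 0.885), and without AdWT 3 and AdKO 3 together it was 0.02.

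*Fsd1l* and *Tmem38b* varied between the libraries of a group by more than the group means differed. *Fsd1l* encodes a protein with fibronectin type III and SPRY domains. Its values were 20.1, 27 and 25.7 CPM in AdWT and 21.5, 16.3 and 24.5 CPM in AdKO, with AdKO 2 lowest and AdWT 1 below 2 of the AdKO libraries. The log2 fold change was -0.23 (SE 0.179, 95% interval -0.64 to 0.19, adjusted *p* = 0.859). It was -0.09 without AdKO 2, -0.34 without AdWT 1 and -0.36 without AdKO 3, so its size depended on single libraries while its direction did not. *Tmem38b* encodes TRIC-B, a cation channel of the endoplasmic reticulum that carries counter-ions while calcium is released. It had 108, 116 and 91.6 CPM in AdWT and 82.4, 105 and 111 CPM in AdKO. The lowest library was AdKO 1 and the highest AdWT 2, and the ranges overlapped over most of their length. The log2 fold change was -0.08 (SE 0.134, 95% interval -0.39 to 0.24, adjusted *p* = 0.916), and it turned to 0.04 without AdKO 1.

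Of the 3 members farthest from *Lexis*, *Zfp462* and *Rad23b* overlapped between the groups and *Klf4* did not. *Zfp462* encodes a zinc finger protein of chromatin. It stood at 26.1, 29.4 and 23 CPM in AdWT and at 23.5, 24.1 and 24.7 CPM in AdKO, all 3 AdKO values falling inside the AdWT range. The log2 fold change was -0.12 (SE 0.113, 95% interval -0.38 to 0.14, adjusted *p* = 0.885). *Rad23b* encodes a partner of Xpc in nucleotide excision repair that also carries ubiquitinated proteins to the proteasome. It had 287, 298 and 260 CPM in AdWT and 260, 298 and 259 CPM in AdKO, nearly the same range in both groups. Its log2 fold change was -0.05 (SE 0.0864, 95% interval -0.25 to 0.15, adjusted *p* = 0.923). With 1 library left out, the log2 fold change lay between -0.21 and -0.03 for *Zfp462* and between -0.12 and -0.01 for *Rad23b*.

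In the AdWT libraries *Tmem38b*, *Zfp462* and *Rad23b* were all highest in AdWT 2 and lowest in AdWT 3. The summed skeletal muscle markers had the same order there, at 144 CPM in AdWT 2, 29.1 CPM in AdWT 1 and 10.7 CPM in AdWT 3. In AdKO they did not share an order: the muscle markers were at 3.29, 2.5 and 2.82 CPM in AdKO 1, 2 and 3, highest where *Tmem38b* was lowest and lowest where *Rad23b* was highest. Without AdWT 2 the log2 fold changes of the 3 genes were -0.01, -0.03 and -0.01, all nearer 0 than with it, and without AdWT 3 they were -0.18, -0.21 and -0.11, all farther from 0. The part of muscle tissue in them was not tested. Over the 6 libraries the Pearson correlations of log2(CPM + 0.5) were 0.73 between *Tmem38b* and *Zfp462*, 0.66 between *Zfp462* and *Rad23b* and 0.62 between *Tmem38b* and *Rad23b*, as a description of values that share libraries and scaling.

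*Klf4* encodes a zinc finger transcription factor known from pluripotency and from the early steps of adipocyte differentiation, which is also expressed in epithelium, macrophages and blood vessels. It was the only member with an unadjusted *p* under 0.05 in the fit reported here, though not in every alternative. Its counts were 3078, 3157 and 2791 in AdWT and 3129, 3197 and 3561 in AdKO, or 201, 188 and 186 CPM against 215, 210 and 214 CPM. After scaling, the AdKO libraries lay within a narrow band (213 ± 2.33 CPM, SD, n = 3) above all AdWT libraries (192 ± 7.94 CPM, SD, n = 3), of which AdWT 1 came closest. The log2 fold change was 0.15 (SE 0.062, 95% interval 0.00 to 0.29), or 1.11-fold, with *p* = 0.0453 in edgeR before adjustment over all rows, an adjusted *p* of 0.851 after it and an exact permutation *p* of 0.1. The direction held in all 15 alternatives, from 0.12 to 0.19 on the log2 scale, but the unadjusted *p* was under 0.05 in 3 of them. Markers of cells that also express *Klf4* varied between the libraries. The 3 macrophage markers with a row summed to 357 to 751 CPM in AdWT and 633 to 786 CPM in AdKO, nearly all of it *Lyz2* and *Mrc1*. The 3 smooth muscle markers summed to 91.9 to 159 CPM and 153 to 191 CPM, nearly all of it *Tagln* (means of 122 and 165 CPM). The sum of the 3 endothelial markers did not run higher in AdKO, at 789 to 1160 CPM in AdWT and 771 to 1090 CPM in AdKO. Nearly all of that sum was *Cdh5*, with means of 938 CPM in AdWT and 935 CPM in AdKO. The 5 immediate early genes with a row, which respond quickly to handling and other stimuli, summed to 361 to 384 CPM and 297 to 381 CPM. *Jun* made up most of that sum, with means of 265 CPM in AdWT and 216 CPM in AdKO. It was lower in every AdKO library than in any AdWT library (log2 fold change -0.30, adjusted *p* = 0.847 in edgeR), where 5.72% of all rows did not overlap with AdKO lower. The other 3 tested, *Fosb*, *Egr1* and *Ier2*, had fold changes above 0, and *Atf3* had 0 counts in all 6 libraries. The part of these cells and stimuli in the *Klf4* values was not tested. Without AdKO 3, the library highest in epithelial markers, the log2 fold change was 0.147, and without AdWT 3 and AdKO 3 it was 0.126.

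**Figure D2:**
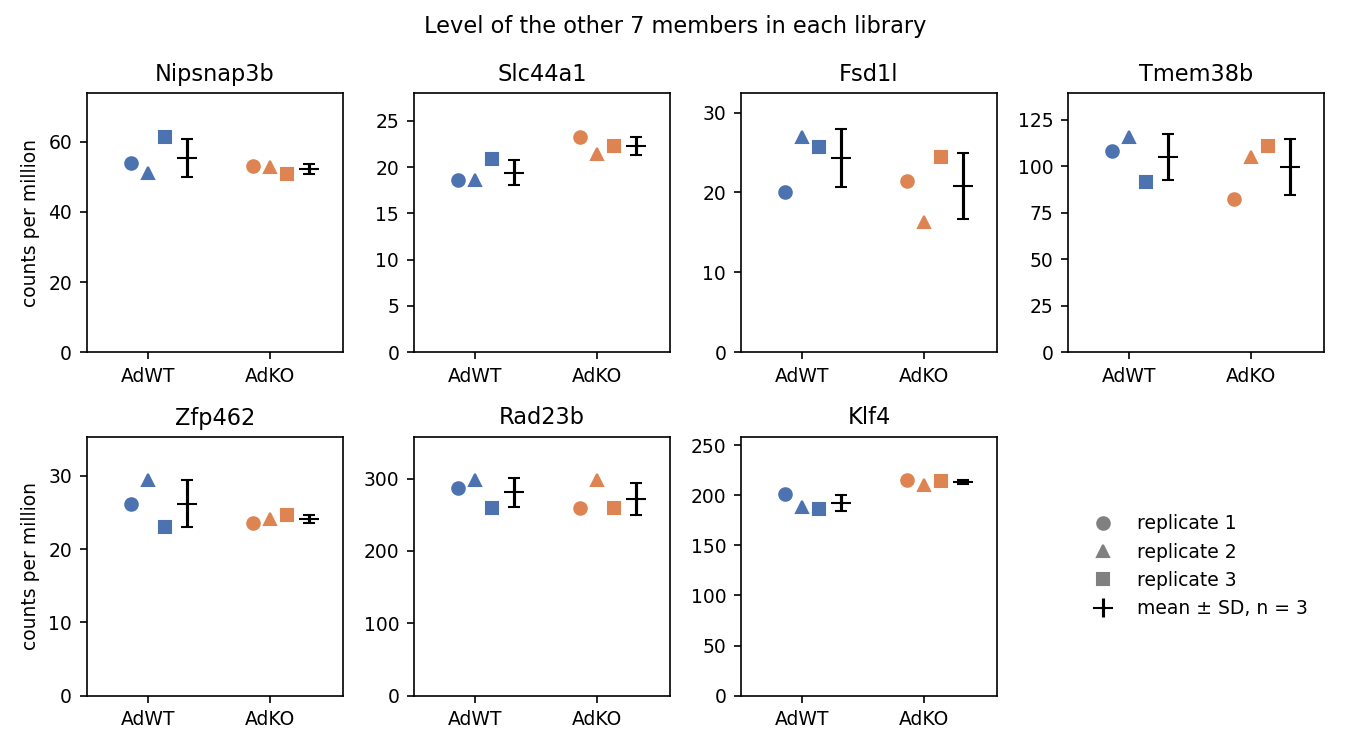
CPM (vertical axes, from 0) of the other 7 members in the libraries labelled AdWT (blue) and AdKO (orange), 1 symbol shape per replicate number, with black bars for the mean ± SD of each group (n = 3). The groups are apart only in *Slc44a1* and *Klf4*, and AdWT 3 stands alone in *Nipsnap3b* at 61.5 CPM.

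Of the list, 0 of the 8 members tested had an adjusted *p* under 0.05 by edgeR, against 0% of all rows, and 1 had an unadjusted *p* under 0.05, against 5.73% of all rows, or 2.76% in the higher direction. The groups of 3 members did not overlap, all with AdKO higher, where 11.9% of all rows did not overlap, 6.16% with AdKO higher and 5.72% with AdKO lower. Of the 8 fold changes, 3 were above 0 and 5 below it, with a median of -0.06 on the log2 scale, against 0.01 over all rows. AI427809, not among the 8, was also above 0. The 3 tested members above 0 are the 3 whose groups did not overlap. *Lexis*, AI427809 and *Slc44a1* follow each other on the chromosome, while 4 members lie between *Slc44a1* and *Klf4*. For the 7 members other than *Lexis* and AI427809, no bound of a 95% interval went above 1.36-fold, and the lowest bound, that of *Fsd1l*, was 0.64-fold. Larger changes of these 7 rows lie outside their intervals, while the intervals of *Lexis* and AI427809 are too wide to say so.

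The members differed far more from each other than between the groups. Per kb of annotated exon, *Klf4* had the highest level, with 66.2 ± 4.11 CPM per kb (SD over the 6 libraries), followed by *Rad23b* with 48.3 ± 3.36 CPM per kb. *Nipsnap3b* (31.9 CPM per kb) and *Tmem38b* (26.9 CPM per kb) came next, and their libraries overlapped. A group of 3 followed, with 3.0 CPM per kb for *Slc44a1*, 2.35 CPM per kb for *Zfp462* and 2.32 CPM per kb for *Fsd1l*, also overlapping. *Lexis*, at 0.468 CPM per kb with a range of 0.324 to 0.893, lay below every value of these 7 genes. The larger row of AI427809 had 0.0476 to 0.293 CPM per kb over the joined length of its gene models. With both of its rows summed it reached 0.487 CPM per kb, and the larger row over the length of 1 model alone reached 0.548 or 0.627, so AI427809 and *Lexis* overlapped under these choices and their order is not settled. The order rests on exon lengths of the annotation, and which exons each row of the table covers is not given in the sources used here.

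**Figure D3:**
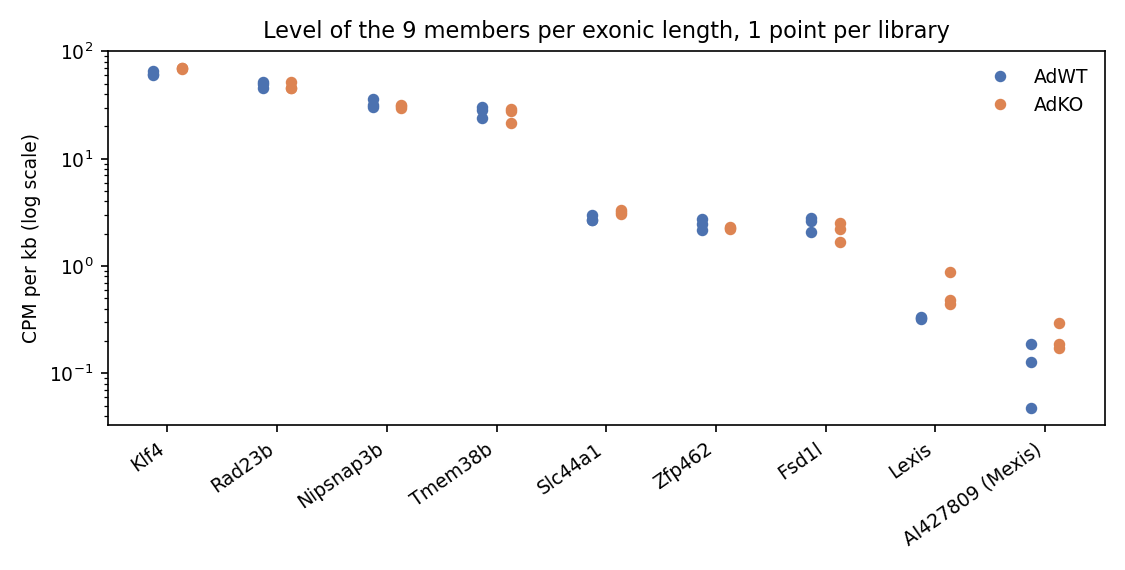
Level of each member per kb of exon (vertical axis, CPM per kb, log scale), 1 point per library with AdWT in blue and AdKO in orange, the members ordered by their mean. *Klf4*, *Rad23b*, *Nipsnap3b* and *Tmem38b* lie above 20 CPM per kb, *Slc44a1*, *Zfp462* and *Fsd1l* between 1 and 4, and *Lexis* and AI427809 below 1.

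The region on both sides of the *Lexis* start, 5 Mb each way, holds 133 named genes that were looked up, of which 46 have a row in the table and 19 passed the filter. Of these 19, 5 had a fold change above 0 and 14 below it, with a median of -0.08 on the log2 scale. Without the members the count was 2 above and 9 below, with a median of -0.13. None had an adjusted *p* under 0.05. Besides *Klf4*, only *Ikbkap*, which encodes the scaffold subunit of the Elongator complex, had an unadjusted *p* under 0.05. Its counts were 702, 816 and 699 in AdWT and 617, 607 and 705 in AdKO, its groups did not overlap in CPM, and its log2 fold change was -0.18 (SE 0.0742, adjusted *p* = 0.851). The 2 genes with an unadjusted *p* under 0.05 stand against 5.73% of all rows. The groups of 5 of the 19 did not overlap, 4 with AdKO higher and 1 lower, against 11.9% of all rows. Besides the members and *Ikbkap* this was *Txn1*, which encodes thioredoxin and was named after its values were seen, at 174 ± 4.04 CPM in AdWT and 187 ± 2.46 CPM in AdKO (SD, n = 3), with a log2 fold change of 0.10 (SE 0.0584, adjusted *p* = 0.853). *Ikbkap* starts 3584.5 kb from the *Lexis* start. A list of 28 paralogs and functional partners of the members, among them other Klf factors, choline pathway enzymes and inositol trisphosphate receptors, had 22 genes with a row, and 13 passed the filter. Of these 13, 6 were above 0 and 7 below, and the median was -0.02. In edgeR 0 had an unadjusted *p* under 0.05, against 5.73% of all rows, and the groups of 0 did not overlap, against 11.9%.

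**Figure D4:**
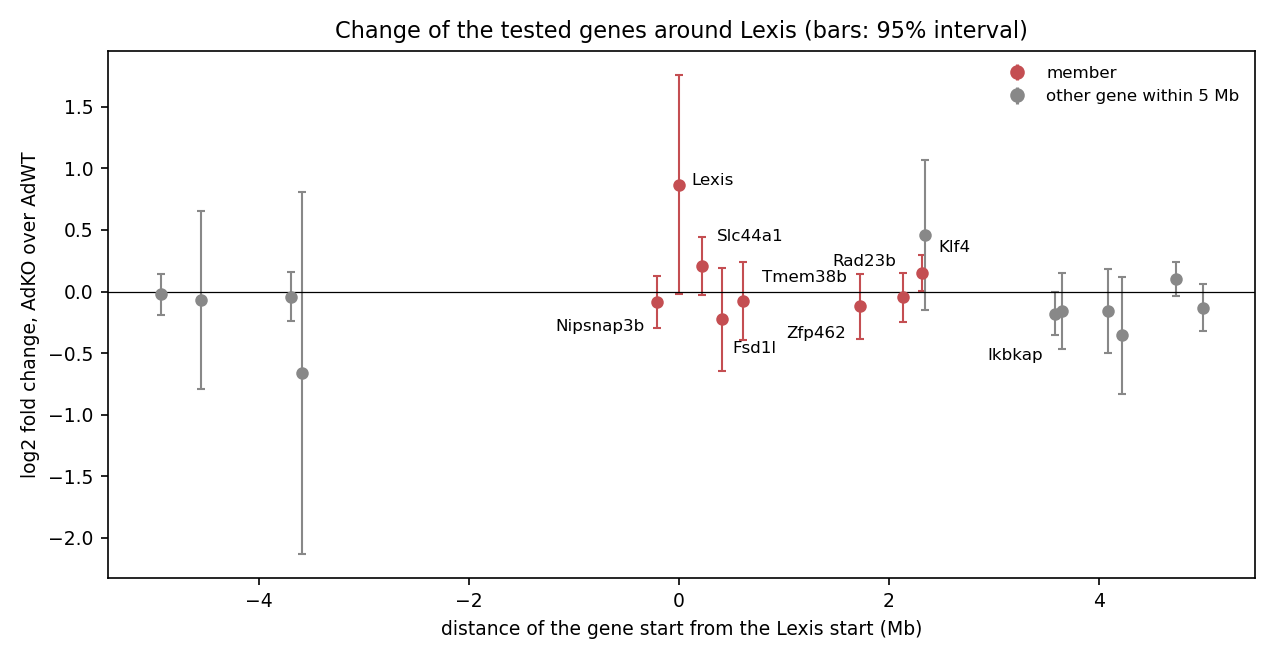
Log2 fold change of AdKO over AdWT (vertical axis, bars for the 95% interval) of the 19 genes tested within 5 Mb of *Lexis*, against the distance of each gene's start from the *Lexis* start (horizontal axis, Mb), members in red and other genes in grey. The bars of *Klf4* (above 0) and *Ikbkap* (below 0) alone leave out 0, and those of *Lexis* and *Slc44a1* just include it.

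The rows most like *Lexis* over the 6 libraries, by Pearson correlation of log2(CPM + 0.5), were *Zfp874b* (0.988), *Tmem175* (0.984) and *Nmrk1* (0.981), the 3 highest of the 9872 rows tested. *Zfp874b* had 265, 309 and 273 counts in AdWT and 361, 301 and 340 in AdKO, with AdKO 1 highest as in *Lexis*. *Tmem175* and *Nmrk1* had 8 to 11 counts in AdWT and 10 to 18 in AdKO, as sparse as *Lexis* itself. With 6 libraries and 9872 rows searched, these values are a description. Among the members, the correlation with *Lexis* was 0.81 for *Slc44a1*, 0.78 for AI427809 and 0.73 for *Klf4*, and it was -0.67 for *Tmem38b*.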

How the data were processed

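RNA from 6 iWAT samples was sequenced (KAPA Stranded RNA-Seq Kit), reads were mapped by the authors (HISAT2, mm9), and the deposited values are raw counts per row with no normalization, 3 libraries a group. The counting tool and annotation are not given in the sources used here. Groups follow the labels, and the controls were littermates, but which samples shared a litter or batch is not stated.

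The members, lists and tests were chosen with earlier results of these data known. The 2 groups were compared in edgeR 4.0.16 (R 4.3.3, limma 3.58.1) with filterByExpr, TMM scaling, glmQLFit and glmQLFTest, with Benjamini-Hochberg adjustment over all rows tested and a threshold of 0.05. Standard errors came from dividing each log2 fold change by the root of its F. DESeq2 1.42.0 ran with its defaults and alpha at 0.05. Exact permutation tests (scipy 1.17.1) used log2(CPM + 0.5). Scripts were tested on simulated data.

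Named genes are the members and the 3 rows most like *Lexis*. Genes of the region and partner lists are named at an unadjusted *p* under 0.05 (at most 10 by *p*). Markers are named where they stood at 0 or apart in single libraries, or to show what a marker sum holds. Those named for a sum, and *Krt8* and *Krt18*, were picked after their values were seen. RefSeq, GENCODE and NCBIM37 gave sequences and positions. Some genes of the region are not reported here.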

Additional observations from a re-analysis of the deposited data

How the results depend on the processing

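The alternatives were DESeq2, scaling by RLE, upper quartile or library size, a filter of at least 1 count in any library or of at least 10 in all libraries, rows of a symbol summed, the replicate number as a block, and each library left out. AdWT 3 and AdKO 3 were also left out together, a choice made after seeing the data. Rows at an adjusted *p* under 0.05 were 0 as reported, 27 in DESeq2, and 1 each with the filter of at least 1 count (*Comp*), without AdKO 3 (Gm8210) and without AdWT 3 and AdKO 3 (Gm8210), names chosen after their values were seen. Leaving out 1 library gave 0 to 1. Rows at an unadjusted *p* under 0.05 were 566, and 329 to 1208 with 1 library left out, 1208 without AdWT 1 and 329 without AdWT 2. The split of those rows was 272 higher and 294 lower, 313 and 162 under library size scaling, which moved the median of all rows to 0.05, and 735 and 473 without AdWT 1. Members at an unadjusted *p* under 0.05 went from 1 to 0 in DESeq2, under RLE or upper quartile scaling, with the filter of at least 1 count, with the block and without AdWT 3 and AdKO 3, and were 0 to 1 with 1 library left out (0 without AdWT 2, AdKO 1 or AdKO 3). Where the count stayed at 1, the member was not always *Klf4*: it was *Lexis* under library size scaling (adjusted *p* = 0.874 in edgeR) and without AdKO 2 (adjusted *p* = 0.997), and *Slc44a1* without AdWT 3 (adjusted *p* = 0.941). Of the 9 members, the groups of 3 did not overlap (11.9% of all rows tested). With 1 library left out this was 3 to 5, with 5 without AdWT 1, and without AdWT 3 and AdKO 3 it was 6. These counts are over all 9 members, with AI427809, which failed the filter. Of the 8 members tested it was 3 or 4 with 1 library left out, where 17.9% to 31.8% of all rows tested did not overlap. It was 4 without AdWT 1 (31.8% of all rows) and 5 without AdWT 3 and AdKO 3 (33.6%). Groups of fewer libraries overlap less often by construction. With 1 library or both of these left out, the log2 fold change of *Nipsnap3b* lay between -0.148 and 0.0161 and that of *Tmem38b* between -0.254 and 0.0411. The sign turned for *Tmem38b* (0.0411 without AdKO 1) and *Nipsnap3b* (0.0161 without AdWT 3 and AdKO 3). Where no cause is given, the cause was not tested. Whether the replicate numbers pair the samples is not stated. Deviations of samples with the same number correlated at -0.102, -0.116 and 0.352 for replicates 1, 2 and 3. The replicate block moved the rows at an unadjusted *p* under 0.05 to 418. Low counts limit *Lexis* and AI427809, at no more than 21 and 6 counts a library. Whether sequencing depth or the way rows were counted sets these counts was not tested.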

Other observations

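*Baat* and *Acnat1*, genes of bile acid and fatty acid conjugation within 5 Mb of *Lexis*, were named after their values were seen. *Baat* had 3, 7 and 63 counts in AdWT 1, 2 and 3 and 2, 2 and 40 in AdKO 1, 2 and 3. *Acnat1* had 0, 6 and 25 counts against 0, 1 and 19. In both genes AdWT 3 and AdKO 3 stood above the other libraries, and these are the 2 libraries in which the epithelial markers *Krt8* (100 and 151 counts, against 2 to 4 in the others) and *Krt18* (173 and 333 counts, against 5 to 9) stood apart. Neither *Baat* nor *Acnat1* passed the filter on low counts, and no difference between the groups was tested for them.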
